A study of Homo sapiens with 6 samples.

Results

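The genes of heme biosynthesis were examined in K562 cells that carried either WT EP400 or EP400 lacking its TRRAP-binding region. Members were taken by gene symbol from the count files, which list 60609 genes. The 9 members were ALAS1, ALAS2, ALAD, UROS, UROD, CPOX, PPOX, FECH and SLC25A37. 1 enzyme step of the pathway is not analysed here. K562 is an established human leukaemia line with erythroid and megakaryocytic features. EP400 is the ATPase of the TIP60 complex, and TRRAP is a large scaffold protein that TIP60 shares with the SAGA complex. In every library, endogenous EP400 carried a homozygous degradation tag and cells had received 500 nM dTAGV-1, the degrader of the tagged protein, for 24 h. The groups differed in the transgene placed at the AAVS1 site: it expressed full-length EP400 in the WT group and EP400 without the SANT and HD domains in the Delta-TRRAP group. Each group had 3 replicate libraries of poly(A) RNA. Each complemented line was 1 clone, so that clone and genotype cannot be told apart, and replicates measured the spread within a clone.

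Heme is an iron-containing ring that carries oxygen in hemoglobin and electrons in cytochromes. Its synthesis begins in mitochondria, where an ALA synthase joins glycine to succinyl-CoA, moves to the cytosol for the steps that build and trim the ring, and returns to mitochondria, where ferrochelatase inserts iron. ALAS1 is the ALA synthase of most tissues and is held back by heme itself, whereas ALAS2 is the erythroid form, encoded on the X chromosome and mutated in X-linked sideroblastic anaemia. SLC25A37, or mitoferrin-1, brings iron into the mitochondria of erythroid cells. Erythroid maturation is known for a steep rise of this pathway under GATA1 and its partners.

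Promoter sequences are shown for both ALA synthases, because the erythroid and the general form differed in how much they rose, and for CPOX, which held the most GATA strings. The RefSeq windows run from 250 bases before to 50 bases after a start site, and the first 210 bases of each are printed 5′ to 3′ on the gene's strand. Capitals mark the strings AGATAA and AGATAG and the strings TGATAA and TGATAG, on either strand, which GATA factors can recognise, and TGANTCA, which NFE2 and AP-1 factors can recognise. The windows printed are chrX:55031018-55031227 for ALAS2, chr3:52197833-52198042 for ALAS1 and chr3:98593652-98593861 for CPOX, all in GRCh38.p14.
ALAS2: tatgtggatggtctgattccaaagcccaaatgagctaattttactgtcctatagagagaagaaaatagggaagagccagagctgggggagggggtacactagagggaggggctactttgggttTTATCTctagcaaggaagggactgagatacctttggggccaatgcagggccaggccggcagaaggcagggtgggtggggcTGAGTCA
ALAS1: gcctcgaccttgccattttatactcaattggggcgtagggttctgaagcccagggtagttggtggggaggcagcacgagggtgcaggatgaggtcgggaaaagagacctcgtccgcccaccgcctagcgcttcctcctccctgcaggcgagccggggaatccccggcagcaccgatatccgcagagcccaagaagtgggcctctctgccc
CPOX: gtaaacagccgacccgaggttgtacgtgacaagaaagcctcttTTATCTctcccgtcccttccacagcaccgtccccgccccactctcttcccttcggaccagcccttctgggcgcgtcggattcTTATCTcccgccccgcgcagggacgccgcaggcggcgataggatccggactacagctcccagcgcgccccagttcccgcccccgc

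The ALAS2 window held 1 GATA string, at -127 from the start site, and TGAGTCA at -47. CPOX held GATA strings at -207 and -125, and ALAS1 held neither motif. RefSeq windows were matched for 7 of the 9 members, 9 windows in all. A GATA string was found in 4 of these 9 windows (ALAS2, CPOX, and the second of the windows of ALAD, at -68, and of PPOX, at -63), against 25.0% of 35116 promoter windows of the same length. TGANTCA was found in 1 of the 9 windows, that of ALAS2, against 7.71% of all windows. These matches describe the letters and not factor binding. UROD, which did not pass the test, and FECH, which rose, both lacked the strings in their windows.

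The members lie on 7 chromosomes of the GRCh38 build. Positions are those of GENCODE release 44, and identifiers with their versions are those of the authors' counts. ALAS1 (ENSG00000023330.15) spans chr3:52198086-52214327 on the plus strand and ALAS2 (ENSG00000158578.21) spans chrX:55009055-55030977 on the minus strand. ALAD (ENSG00000148218.16) lies at chr9:113386312-113401290 and UROS (ENSG00000188690.15) at chr10:125784980-125823258, both on the minus strand. UROD (ENSG00000126088.14) lies at chr1:45010950-45015575 and PPOX (ENSG00000143224.18) at chr1:161166056-161178013, both on the plus strand. CPOX (ENSG00000080819.9) lies at chr3:98579446-98593648 and FECH (ENSG00000066926.11) at chr18:57544377-57586732, both on the minus strand. SLC25A37 (ENSG00000147454.14) spans chr8:23528956-23575463 on the plus strand. Overlapping genes on the opposite strand were APEX2 at ALAS2, HECTD3 at UROD, B4GALT3 and ENSG00000290115 at PPOX and MIR4484 at UROS, and the authors counted reads by strand. The same-strand neighbour AC021660.3 at CPOX and the ferrochelatase pseudogene FECHP1 each had 0 counts over the 6 libraries.

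The 6 libraries held 35076835 to 42616061 counts in genes. Of 34998 genes with a count, 19114 passed the filter of a mean normalized count of 5, where a normalized count is the count scaled by the TMM library size. All 9 members passed, with 900 to 40276 counts per library, so the filter removed none. Between replicates of a group, the coefficient of variation of members was 0.789% to 6.59%. EP400 itself had 5057 ± 277 normalized counts in WT and 5574 ± 1238 in Delta-TRRAP (SD, n = 3), a log2 fold change of 0.14 ± 0.11 (SE, edgeR adjusted p = 0.272). That count adds reads of the tagged locus to those of the transgene and does not measure the degraded protein. More genes were detected in Delta-TRRAP (27928 to 28033) than in WT (25668 to 25998), and mitochondrially encoded genes took 5.07% to 6.24% of counts against 3.18% to 3.71%. The cell label reads lymphoblast, whereas the erythroid factor GATA1 was abundant in all libraries. The B cell marker MS4A1 was at 0 in all 6, and 4 of 8 lymphoid markers were under the filter.

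To ask how the pathway as a whole stood in cells with the truncated EP400, each member was compared between Delta-TRRAP and WT with the edgeR quasi-likelihood test fitted over all tested genes. Transcripts of nearly every member were higher in Delta-TRRAP. Only RNA was measured here, and not enzyme or heme. Of the 9 members, 8 rose at an edgeR adjusted p (Benjamini-Hochberg) of at most 0.01, and UROD did not pass. The rises ran from 1.48-fold for ALAD to 13.4-fold for ALAS2, with edgeR adjusted p-values of 8.7e-16 to 2.86e-07. Across all genes tested, 30.7% rose and 27.6% fell at that adjusted p. Among the 6804 genes whose normalized counts averaged at least 1000 over the 6 libraries, as all members had, 22.1% rose at it. ALAD and PPOX, with WT means of 930.5 and 945.1, reached that average only through their Delta-TRRAP counts. With the added minimum of a 2-fold change, 4 members were called higher (ALAS2, SLC25A37, FECH and PPOX), where the background was 16.5% of all genes tested and 2.41% of the genes with a mean of at least 1000. No member was called lower by edgeR, DESeq2 or limma-voom, none had an unadjusted p under 0.05 in that direction, and the background of lower calls was 6.08%. Normalized counts did not overlap between groups for 8 members, all higher in Delta-TRRAP, as for 37.4% of tested genes. The median log2 fold change was 0.96 over the 9 members, 0.03 over all tested genes and -0.14 over the genes with a mean of at least 1000. In bulk RNA, a change in the share of cells that make a transcript and a change in its level per cell cannot be told apart.

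**Figure D1:**
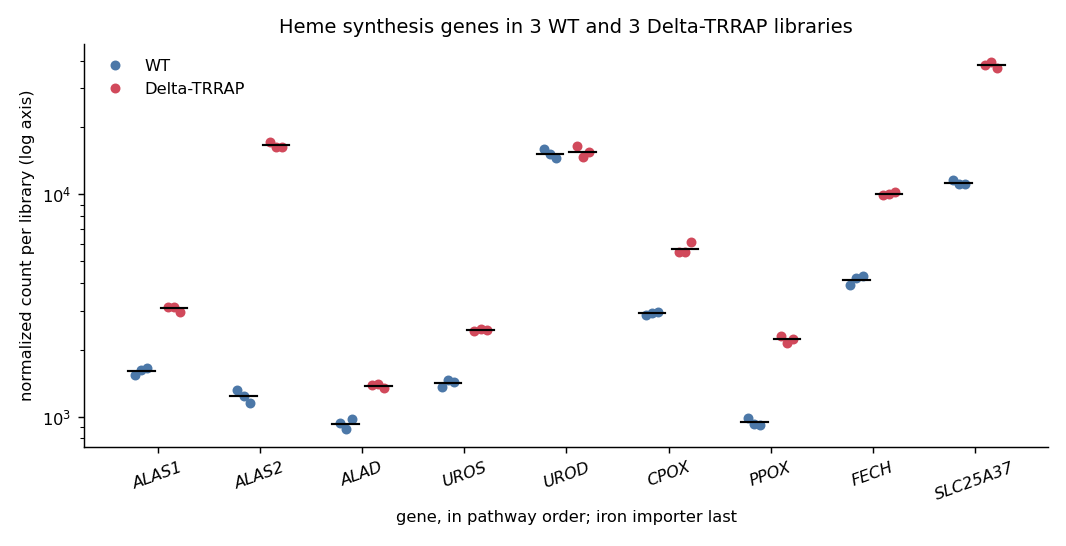
Normalized counts (log axis) of the 9 heme synthesis genes in 3 WT and 3 Delta-TRRAP libraries, with genes in pathway order and the iron importer last; points are libraries and bars are group means. The Delta-TRRAP points lie above all WT points for each gene except UROD, whose groups overlap.

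ALAS2 showed the largest rise of the members. Its normalized counts were 1321, 1244 and 1158 in the WT libraries and 17239, 16368 and 16329 in the Delta-TRRAP libraries. The lowest Delta-TRRAP library thus lay far above the highest WT library. The means were 1241 ± 81.8 and 16645 ± 515 (SD, n = 3), a log2 fold change of 3.75 ± 0.06 (SE, edgeR adjusted p = 8.7e-16), with a 95% interval of 12.2- to 14.7-fold. Ranked by log2 fold change among the 6804 genes with a mean of at least 1000, ALAS2 was number 11.

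ALAS1, the form used in most tissues, rose as well, but by less. It had 1549, 1627 and 1650 normalized counts in WT and 3123, 3126 and 2966 in Delta-TRRAP. The groups were well apart and replicates lay close together. From 1609 ± 52.9 to 3072 ± 91.7 (SD, n = 3), the change was 1.91-fold (95% interval 1.77 to 2.06, edgeR adjusted p = 3.79e-10), so that the 2-fold threshold lay within its interval and ALAS1 was not called.

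The ratio of the ALA synthases differed between the groups in every library. ALAS2 counts divided by ALAS1 counts gave 0.853, 0.765 and 0.702 in the WT libraries and 5.52, 5.24 and 5.51 in the Delta-TRRAP libraries. ALAS1 counts outnumbered ALAS2 counts in each WT library and the reverse held in each Delta-TRRAP library. The log2 ratio was -0.38 ± 0.14 in WT and 2.44 ± 0.04 in Delta-TRRAP (SD, n = 3), a 7.03-fold shift. An exact two-sided permutation test of these 6 ratios gave p = 0.1, the smallest that the 20 regroupings of 3 against 3 allow. Divided by transcript length, the ratio was 0.859 to 1.04 in WT against 6.41 to 6.76 in Delta-TRRAP.

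Of the cytosolic enzymes that follow, ALAD and UROS rose by less than 2-fold. ALAD, which condenses ALA into the pyrrole porphobilinogen, had 937.3, 881.6 and 972.7 normalized counts in WT and 1395, 1400 and 1347 in Delta-TRRAP. Its means were 930.5 ± 45.9 and 1381 ± 29.6 (SD, n = 3), a 1.48-fold rise (95% interval 1.37 to 1.61, edgeR adjusted p = 2.86e-07). The lowest Delta-TRRAP library lay well above the highest WT library, although ALAD rose the least of the 8. UROS, which closes the ring into uroporphyrinogen III, had 1361, 1458 and 1430 normalized counts in WT and 2436, 2473 and 2464 in Delta-TRRAP. From 1416 ± 50.01 to 2458 ± 19.4 (SD, n = 3), its log2 fold change was 0.80 ± 0.05 (SE, edgeR adjusted p = 1.86e-09). UROS replicates in Delta-TRRAP were the tightest of any member.

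UROD, which removes carboxyl groups from uroporphyrinogen, was the exception. Its normalized counts were 16063, 15144 and 14549 in WT and 16486, 14661 and 15466 in Delta-TRRAP. The groups overlapped: the lowest Delta-TRRAP library fell below 2 of the WT libraries. The means of 15252 ± 763 and 15538 ± 915 (SD, n = 3) gave a fold change of 1.02, with a 95% interval of 0.936 to 1.11 (edgeR adjusted p = 0.695). A rise of the size seen for ALAD lies outside that interval. Per length of transcript, UROD was the most abundant member in both groups.

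The late enzymes CPOX, PPOX and FECH, which act in mitochondria, rose by about 2-fold or more. CPOX, which makes protoporphyrinogen, had 2868, 2932 and 2961 normalized counts in WT and 5488, 5490 and 6117 in Delta-TRRAP. Delta-TRRAP replicate 3 was the highest, and all 3 libraries of that group lay far above WT. From 2920 ± 47.7 to 5698 ± 363 (SD, n = 3), the change was 1.95-fold (95% interval 1.80 to 2.12, edgeR adjusted p = 5.65e-10), just under the 2-fold threshold. PPOX, which oxidises protoporphyrinogen, had 991, 928.6 and 915.7 normalized counts in WT and 2304, 2153 and 2245 in Delta-TRRAP. The means were 945.1 ± 40.3 and 2234 ± 76.0 (SD, n = 3), a 2.36-fold rise (95% interval 2.18 to 2.56, edgeR adjusted p = 2.97e-11). PPOX began as the second lowest member in WT counts and passed the threshold clearly. FECH, the ferrochelatase that inserts iron, had 3909, 4224 and 4283 normalized counts in WT and 9901, 10052 and 10288 in Delta-TRRAP. With means of 4139 ± 201 and 10080 ± 195 (SD, n = 3), its log2 fold change was 1.28 ± 0.05 (SE, edgeR adjusted p = 1.26e-11). No Delta-TRRAP library came near the WT range of FECH.

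SLC25A37, the mitochondrial iron importer, showed the second largest rise. It had 11557, 11084 and 11132 normalized counts in WT and 38316, 39263 and 36971 in Delta-TRRAP. Means of 11258 ± 260 and 38183 ± 1152 (SD, n = 3) gave a 3.39-fold rise (95% interval 3.14 to 3.66, edgeR adjusted p = 2.48e-13). Among the members, the largest rises were thus those of ALAS2, the erythroid form of the first enzyme, and of this mitochondrial iron carrier.

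**Figure D2:**
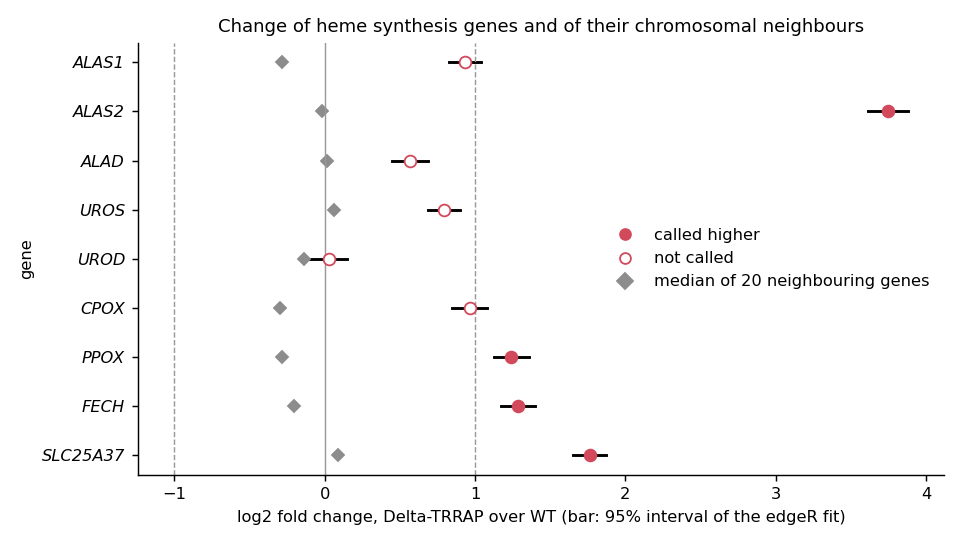
Log2 fold change of each member, Delta-TRRAP over WT, with the 95% interval of the edgeR fit, and the median of the 20 nearest tested genes on its chromosome (grey diamonds); filled points passed the adjusted p of 0.01 and the 2-fold minimum. ALAS2 stands apart at 3.75, the interval of UROD covers 0, and neighbour medians run from -0.30 to 0.09.

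Neighbouring genes were compared because a gain or loss of a chromosome segment in 1 clone would move genes together. For each member, 10 tested genes whose normalized counts averaged at least 100 were taken on each side. Their median log2 fold change was -0.29 around ALAS1, -0.02 around ALAS2, 0.01 around ALAD, 0.06 around UROS and -0.14 around UROD. Around CPOX it was -0.30, around PPOX -0.28, around FECH -0.20 and around SLC25A37 0.09. Each of the 8 members that rose lay above its neighbours' median, by 0.56 for ALAD up to 3.76 for ALAS2. None of the 20 neighbours rose more than ALAS1, ALAS2 or CPOX did, 1 did so around UROS, PPOX, FECH and SLC25A37 each, and 2 around ALAD. Around UROD, 6 of 20 neighbours had a higher log2 fold change. The 20 neighbours spanned 1.3 Mb around ALAS1 up to 9.65 Mb around UROS, and around FECH their log2 fold changes ran from -5.01 to 4.06. A median over such spans can miss a change confined to a shorter segment, and the part of copy number was not tested.

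**Figure D3:**
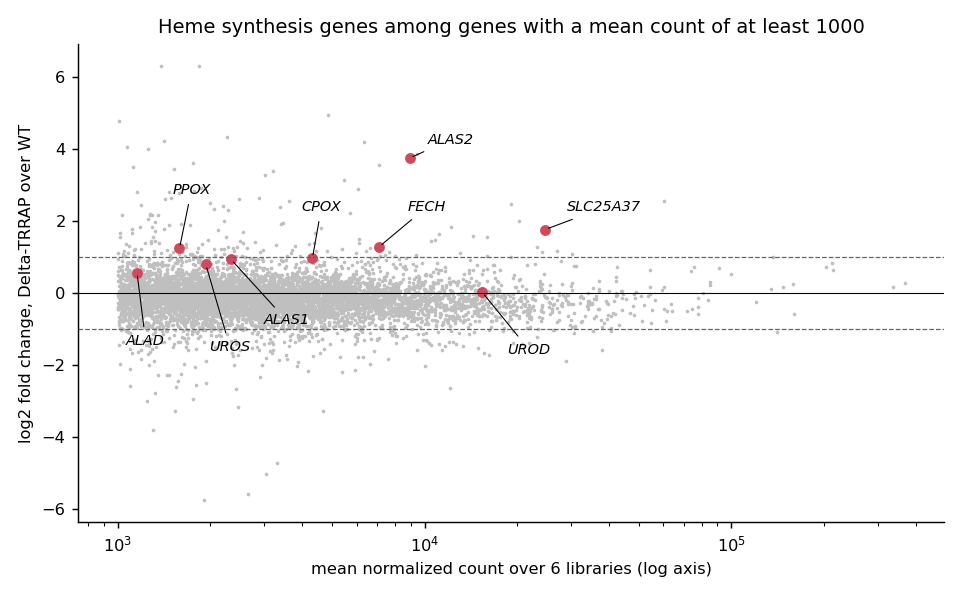
Log2 fold change, Delta-TRRAP over WT, against the mean normalized count over 6 libraries (log axis) for the 6804 tested genes with a mean of at least 1000 (grey), with the 9 members in red; dashed lines mark a 2-fold change. By log2 fold change among these genes, ALAS2 ranks 11 and SLC25A37 ranks 59, and UROD lies at 0.03.

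Levels were compared between members per kilobase of the canonical transcript, since long transcripts collect more reads. The order rests on that single length per gene, from 1193 bases for UROD to 7689 for FECH, and other transcript lengths were not tried. In WT, UROD was the most abundant at 12785 ± 639 normalized counts per kb, followed by SLC25A37 at 2410 ± 55.7 (SD, n = 3). CPOX (1078 ± 17.6) and UROS (1060 ± 37.4) came next and overlapped. ALAS1 (677 ± 22.3) and ALAS2 (640 ± 42) overlapped as well, as did PPOX (545 ± 23.2) and FECH (538 ± 26.2), with ALAD lowest at 297 ± 14.7. In Delta-TRRAP, UROD remained first at 13024 ± 767 normalized counts per kb, but ALAS2 moved from the sixth place to the second at 8580 ± 265, just above SLC25A37 at 8173 ± 247. The libraries of these neighbours in the order did not overlap, though they lay close, at 8417 to 8886 for ALAS2 and 7913 to 8404 for SLC25A37. Below them came CPOX at 2103 ± 134 and UROS at 1840 ± 14.4. FECH (1311 ± 25.4), ALAS1 (1293 ± 38.5) and PPOX (1289 ± 43.9) could not be ordered, and ALAD was again the lowest at 441 ± 9.35.

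**Figure D4:**
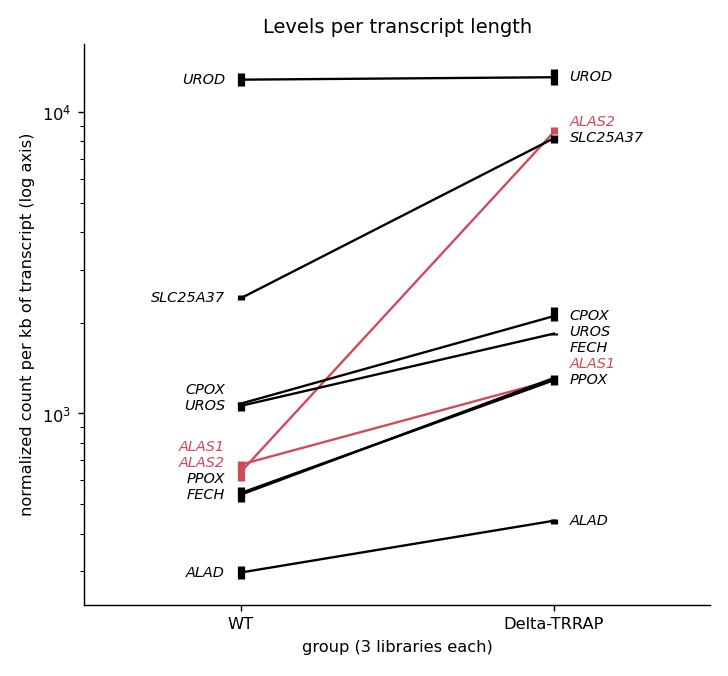
Level of each member as normalized count per kilobase of canonical transcript (log axis) in WT and Delta-TRRAP; lines join group means, thick bars span the 3 libraries of a group, and the ALA synthases are in red. ALAS2 crosses from the sixth place at 640 to the second at 8580, while UROD stays in the first place.

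As a share of all counts in a library, the 9 members held 0.0960% to 0.0997% in WT against 0.253% to 0.262% in Delta-TRRAP. Within that pool the make-up also changed. ALAS2 gave 2.97% to 3.26% of the member counts in WT against 17.2% to 17.8% in Delta-TRRAP. SLC25A37 gave 28.1% to 28.5% in WT against 39.3% to 41.3% in Delta-TRRAP. The share of ALAS1 was 3.82% to 4.23% in WT against 3.15% to 3.29% in Delta-TRRAP, since other members rose more.

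The genes that feed and serve the pathway changed in both directions. A list of 20 carriers, porphyrin transporters and mitochondrial partners had 19 tested genes, of which 3 rose and 9 fell at an edgeR adjusted p of 0.01 against 30.7% and 27.6% of all genes tested, with a median log2 fold change of -0.24. With the 2-fold minimum, 1 was called higher and 1 lower, against 16.5% and 6.08% of all genes tested. ABCG2, an exporter of porphyrins and drugs, rose from 17.5 ± 3.99 to 174 ± 15.2 normalized counts (SD, n = 3), a log2 fold change of 3.30 ± 0.17 (SE, edgeR adjusted p = 2.46e-10). TSPO, an outer mitochondrial membrane protein that binds porphyrins, fell from 472 ± 83.3 to 165 ± 38.0 (SD, n = 3), with a log2 fold change of -1.51 ± 0.15 (SE, edgeR adjusted p = 2.44e-07).

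Some partners of that list are described for their known role, and were chosen after their values were seen. FAM210B, which aids iron delivery to ferrochelatase in erythroid cells, rose with a log2 fold change of 0.73 ± 0.05 (SE, edgeR adjusted p = 3.13e-09). ABCB10, an inner membrane transporter that stabilises mitoferrin-1, moved the other way from SLC25A37, at -0.32 ± 0.05 (SE, edgeR adjusted p = 2.95e-05). SLC25A38, the glycine carrier that supplies ALA synthase, had a log2 fold change of -0.06 ± 0.05 (SE, edgeR adjusted p = 0.355).

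Genes that use, move or break down heme changed about as often as genes in general. Of 16 such genes, 14 were tested, and 5 rose and 3 fell at an edgeR adjusted p of 0.01, where 30.7% and 27.6% of all genes tested did so, and the median log2 fold change was 0.11. HMOX1, the inducible heme oxygenase, chosen after its values were seen, was under the filter. CYB5A, a cytochrome b5, was the 1 gene called higher (edgeR adjusted p = 7.95e-05), on 1 count over the WT libraries and 32 over the Delta-TRRAP libraries, a ratio of 32.2 with a 95% counting interval of 5.38 to 1312. It passed the filter through its Delta-TRRAP counts, with a mean normalized count of 5.53 over the 6 libraries. Without the second or the third Delta-TRRAP replicate, its mean fell under 5 and it was not tested. No gene of the list was called lower by edgeR, DESeq2 or limma-voom, while 3 had an unadjusted p under 0.05 in that direction. Over all genes tested, edgeR called 16.5% higher and 6.08% lower.

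Iron-sulfur assembly, which shares mitochondrial iron with ferrochelatase, showed small changes. Of 15 genes 14 were tested, and their log2 fold changes ran from -0.73 to 0.23 with a median of 0.04. By edgeR, DESeq2 and limma-voom, 0 were called in either direction, where edgeR called 16.5% of all genes tested higher and 6.08% lower. At an unadjusted p under 0.05, 1 rose and 2 fell. The same counts held at the adjusted p of 0.01, against 30.7% and 27.6% of all genes tested. The largest of these changes, chosen after its value was seen, was in the cysteine desulfurase NFS1, which fell by 0.73 on the log2 scale (edgeR adjusted p = 1.39e-07). The iron regulatory proteins, which bind the ALAS2 and TFRC transcripts, were in the list and were also singled out afterwards. Their log2 fold changes were 0.11 ± 0.05 for ACO1 (SE, edgeR adjusted p = 0.0931) and 0.04 ± 0.06 for IREB2 (SE, edgeR adjusted p = 0.543).

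**Figure D5:**
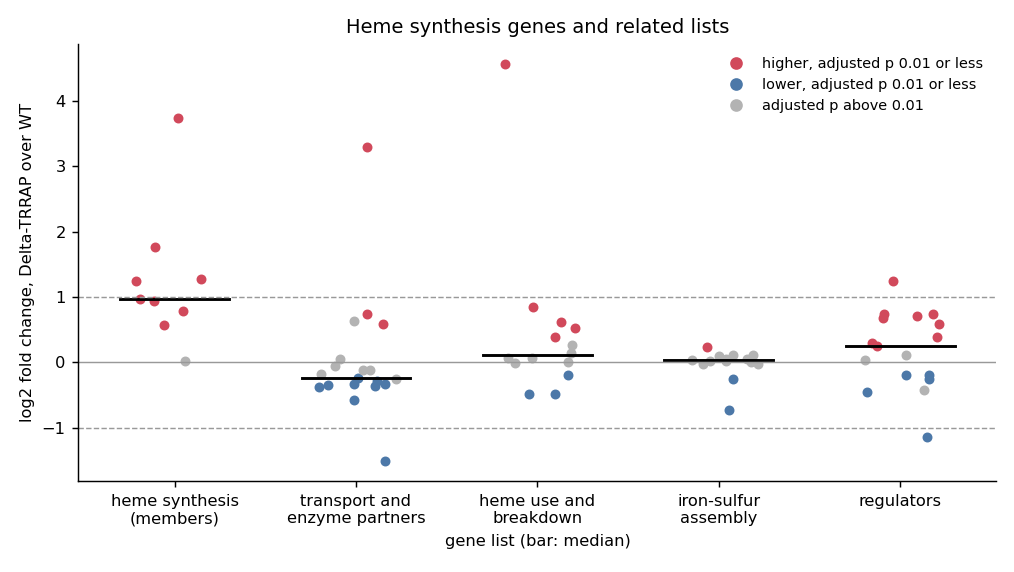
Log2 fold change, Delta-TRRAP over WT, of each tested gene of the heme synthesis list and of 4 related lists; bars are medians, colours give the direction at an edgeR adjusted p of 0.01, and dashed lines mark a 2-fold change. The median is 0.96 for heme synthesis and -0.24, 0.11, 0.04 and 0.25 for the other lists.

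Regulators known to act on the pathway were examined next. Of 18, 17 were tested, with 9 higher and 5 lower at an edgeR adjusted p of 0.01, against 30.7% and 27.6% of all genes tested, and a median log2 fold change of 0.25. FOXO3, a forkhead factor that acts in erythroid maturation, was called higher, from 1409 ± 82.6 to 3343 ± 147 normalized counts (SD, n = 3; log2 fold change 1.25 ± 0.06, SE, edgeR adjusted p = 4.80e-11). LMO2, the bridging subunit of the GATA1 and TAL1 complex, was called lower, from 5089 ± 110 to 2312 ± 111 (SD, n = 3; log2 fold change -1.14 ± 0.05, SE, edgeR adjusted p = 4.69e-11). The partners of that complex thus did not move as a unit.

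GATA1, the central erythroid factor, had 6605 ± 218 normalized counts in WT and 5815 ± 211 in Delta-TRRAP (SD, n = 3), a small decrease with a log2 fold change of -0.18 ± 0.05 (SE, edgeR adjusted p = 0.00505). GATA2, the factor that GATA1 replaces as erythroid cells mature, rose by 0.39 ± 0.05 on the log2 scale (SE, edgeR adjusted p = 4.38e-06). TAL1 rose from 6468 ± 168 to 10844 ± 205 (SD, n = 3), by 0.75 ± 0.05 on the log2 scale (SE, edgeR adjusted p = 2.71e-09). NFE2, a factor that can recognise TGANTCA, was chosen after its values were seen and rose by 0.71 ± 0.05 (SE, edgeR adjusted p = 8.69e-09). KLF1, an erythroid activator, did not pass, at 0.11 ± 0.05 (SE, edgeR adjusted p = 0.0615). ZFPM1, the GATA1 cofactor FOG1, rose by 0.25 ± 0.06 (SE, edgeR adjusted p = 0.00122). BACH1, a repressor that heme itself inactivates, rose by 0.68 ± 0.06 (SE, edgeR adjusted p = 5.87e-08). EIF2AK1, the heme-regulated kinase that slows translation when heme is short, was chosen after its values were seen and rose by 0.58 ± 0.05 (SE, edgeR adjusted p = 1.17e-07). None of these 8 reached a 2-fold change, unlike ALAS2, SLC25A37, FECH and PPOX.

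Markers of erythroid and other cell types changed in both directions. Of 13 erythroid markers, 6 were called higher and 2 lower, against 16.5% and 6.08% of all genes tested, with a median log2 fold change of 0.52. The summed normalized level of the list was 211510 to 213920 in WT against 131960 to 136120 in Delta-TRRAP, and TFRC, the transferrin receptor, made up most of it. TFRC, which takes up the iron that SLC25A37 carries onward, went from 192090 ± 2051 to 90173 ± 5302 normalized counts (SD, n = 3; log2 fold change -1.09 ± 0.06, SE, edgeR adjusted p = 1.41e-10). Without TFRC, the sum was 18601 to 21803 in WT against 40097 to 46284 in Delta-TRRAP. The anion exchanger SLC4A1 rose from 214 ± 3.64 to 4318 ± 249 (SD, n = 3), and HBZ, an embryonic globin, from 1440 ± 120 to 10665 ± 1485. AHSP, the chaperone of alpha globin, fell from 217 ± 20.7 to 19.1 ± 3.48. The remaining markers called higher were EPB42, HBE1, HBA1 and HBA2, and the alpha globin genes are near-identical copies whose counts are uncertain. HBG1 and HBG2, also near-identical copies with uncertain counts, were not called. Their log2 fold changes were -0.41 ± 0.12 (SE, edgeR adjusted p = 0.00664) and -0.05 ± 0.12 (SE, edgeR adjusted p = 0.744). At the adjusted p of 0.01 alone, 7 of the 13 markers were higher and 3 lower, against 30.7% and 27.6% of all genes tested. Of 5 markers of the K562 line, 0 were called, where 16.5% of all genes tested were called higher and 6.08% lower. At the adjusted p of 0.01 alone, 0 of the 5 were higher and 3 lower, against 30.7% and 27.6%. The sum of these K562 markers was 31389 to 32656 in WT against 25474 to 28583 in Delta-TRRAP.

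Markers of other cells were not level between groups, and many were under the filter. Of 8 megakaryocyte markers, GP9, GP1BA and PF4 were among those at 0 in all libraries, 6 were under the filter, and the sum was 723 to 784 in WT against 180 to 217 in Delta-TRRAP. ITGA2B, the integrin alpha-IIb gene, made up most of that sum and was called lower, from 661 ± 31.6 to 89.3 ± 14.4 normalized counts (SD, n = 3), whereas ITGB3, the other tested marker, had 87.1 ± 4.88 and 97.8 ± 5.96. Over all genes tested, 6.08% were called lower. Lymphoid markers summed to 796 to 882 in WT against 1273 to 1427 in Delta-TRRAP. Of the 4 lymphoid markers tested, RAG1 was called higher, against 16.5% of all genes tested. Fibroblast markers summed to 110 to 131 in WT against 1573 to 1601 in Delta-TRRAP. Of 10, LUM and PDGFRA were at 0 in all libraries and 4 were under the filter. Of the 6 tested, COL1A2, ACTA2 and PDGFRB were called higher, against 16.5% of all genes tested. COL1A2 went from 1.62 ± 1.99 to 876 ± 45.1 normalized counts and ACTA2 from 0.320 ± 0.554 to 530 ± 8.11 (SD, n = 3). PDGFRB went from 1.65 ± 1.54 to 9.34 ± 1.21. All 3 had WT means under 5 and passed the filter through their Delta-TRRAP counts. The summed normalized level of the 9 heme synthesis genes was 39051 to 40556 in WT against 94191 to 96689 in Delta-TRRAP. The part of these markers in the rise of the heme genes was not tested, nor was that of the number of genes detected or of the mitochondrial share.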

How the data were processed

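Stranded poly(A) RNA-seq of 6 K562 libraries was used, 3 per group, grouped and numbered by sample title. The authors deposited raw counts of uniquely mapped reads per gene: STAR alignment to hg38 and HTSeq 2.0.2, reverse-stranded, on GENCODE genes. Discarding multi-mapping reads lowers counts of near-identical genes. The authors' normalized table, which also had 3 columns of another condition, and their table of fold changes and adjusted p-values for this comparison were not used.

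Counts were fitted with edgeR 4.0.16 in R 4.3.3 over all genes whose normalized counts averaged at least 5, with TMM scaling, group as the only term, the quasi-likelihood F test and Benjamini-Hochberg adjustment over 19114 genes. A gene was called when its adjusted p was at most 0.01 and it changed 2-fold or more, thresholds of the study, which used DESeq2. Intervals of fold changes are 95% intervals of the fit. Whether replicates came from separate cultures is known only from the study's term biological replicates, and p-values measure the spread between these libraries. Chi-square per degree of freedom between replicates of a group was 5.43 to 17.5, so none was a duplicate. Depth was 35076835 to 42616061 counts per library, and counting intervals cover counting error only. Lengths and positions came from GENCODE release 44 and promoters from RefSeq (GRCh38.p14). The fitting code was tested on simulated data.

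The members and lists were chosen with earlier results of these data known. All 9 members were named, together with EP400, every called gene of 4 related lists, and GATA1, GATA2, KLF1, TAL1, BACH1 and ZFPM1. Where a list had more than 4 called genes in 1 direction, the 4 largest changes with a mean of at least 100 were to be named, which did not arise. Some genes of the lists are not reported here by name. The cell type markers and the other genes named were chosen after their values were seen. Alternatives were DESeq2 1.42.0, limma-voom (limma 3.58.1), other scalings, filters and thresholds, a block for replicate number, and the removal of each library. The counts of the related lists under these alternatives were added after seeing the data.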

Additional observations from a re-analysis of the deposited data

How the results depend on the processing

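The 4 heme synthesis genes called higher in the main analysis stayed 4 in number with DESeq2, limma-voom, RLE scaling, scaling without mitochondrial genes, no filter and each library left out. The count was 8 with no fold change minimum and 7 with a minimum of 1.5-fold. It was 6 with upper quartile scaling, library size scaling or a filter at a mean of 50, where ALAS1 and CPOX passed 2-fold; upper quartile and library size scaling moved the median of all genes from 0.03 to 0.13 and 0.17 on the log2 scale. Over 15 settings, log2 fold changes ran from 3.69 to 3.88 for ALAS2, 1.74 to 1.89 for SLC25A37, 0.90 to 1.07 for ALAS1 and 0.91 to 1.10 for CPOX. UROD was -0.0117 without WT replicate 3 and -0.0223 without Delta-TRRAP replicate 1, within a range of -0.0223 to 0.0726 over the libraries left out, and never passed the adjusted p of 0.01. The cause of these shifts was not tested.

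Replicate numbers are shared between groups, but same-numbered libraries did not deviate together: correlations of their deviations were -0.0108, -0.035 and -0.0241. With the replicate block, 4 heme synthesis genes were called higher, and over all genes 3049 were called higher and 1135 lower, against 3160 and 1162. A filter at a mean of 50 gave 1291 and 673 over all genes, a minimum of 1.5-fold 4188 and 2562, and no fold minimum 5874 and 5275. Depth did not limit the members, which had at least 900 counts per library; it limits low genes such as CYB5A, and the single clone per line limits every comparison.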
